A study of Mus musculus with 12 samples.

Results

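Cholesterol synthesis and its control were followed through 29 genes in cortical oligodendrocyte precursor cells (OPCs) and cortical neurons of the mouse. The list was given by name and held 6 enzymes from acetyl-CoA to the isoprene units, 3 that join these units, 10 that turn squalene into cholesterol, 5 genes that control the pathway and 5 that move, store or remove sterols. Each symbol matched a single gene in both deposited tables, and 29 of 29 passed the filter on low counts in both cell types, out of 17364 genes tested in OPCs and 14352 in neurons.

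Cells build cholesterol from acetyl-CoA by way of mevalonate, farnesyl diphosphate and squalene, and most genes of this route are switched on together by sterol regulatory element-binding proteins (SREBPs). When membranes of the endoplasmic reticulum hold enough sterol, Insig proteins keep Scap and its bound SREBP there, and when sterol is low Scap carries SREBP to the Golgi for cleavage. In the brain, cholesterol is made locally, oligodendrocytes use large amounts of it for myelin, and neurons dispose of it through the 24-hydroxylase Cyp46a1.

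The dKO mice carried the inducible NG2-CreERT2 driver with floxed exons 14 and 15 of Cacna1c and floxed exon 2 of Cacna1d, the genes of the L-type calcium channel subunits Cav1.2 and Cav1.3. Tamoxifen was given in the study at 100 mg/kg on postnatal days 7 and 8, and the age at which cells were collected for sequencing was not given in the sources used here. Genotype was labelled WT for ctl and dko for dKO, with no statement of Cre or floxed alleles in ctl. The NG2 promoter is also active in pericytes, and neurons were not the target of this driver. OPCs were selected on beads against CD140, NG2 and O4, while neurons were the unbound cells after depletion of those with O4, CD11b, CD31 or ACSA-2. Each of the 4 groups had 3 libraries, and each library pooled cells of 2 mice, so p-values measure the spread between pools.

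Depth, targeted genes and markers were checked first. OPC libraries held 14935963 to 19812274 counts and neuron libraries 15052892 to 16344601. In OPCs, Cacna1c had normalised counts of 373, 411 and 439 in ctl and 252, 337 and 312 in dKO, and Cacna1d had 251, 191 and 255 in ctl and 92.8, 153 and 232 in dKO. Counts over a whole gene do not isolate the floxed exons. In neurons, Cacna1c had normalised counts of 93.4, 111 and 62.1 in ctl and 165, 139 and 57.3 in dKO, and Cacna1d had 30.5, 10.7 and 20.4 in ctl and 54.9, 25.6 and 26.6 in dKO. The OPC libraries were rich in oligodendrocyte RNA, with a summed level of 12 oligodendrocyte markers between 32591 and 54282 TPM, a length-scaled level, against 271 to 775 TPM for 12 OPC markers. The neuron libraries held 11750 to 30802 TPM of endothelial markers against 376 to 741 TPM of neuron markers. Ependymal and choroid markers summed to 36016 to 78005 TPM in OPC libraries and 14565 to 74659 TPM in neuron libraries. The labels OPC and neuron are therefore used below as names of the isolations. In OPCs, dKO library 2 stood apart, with 14983 Xist counts against 3 to 17 in the other libraries and 0 counts of the Y-linked Ddx3y, Kdm5d, Eif2s3y and Uty. No OPC ctl library had this pattern, so sex-linked RNA was not balanced between ctl and dKO, and its part in the OPC differences was not tested. In neurons, Ddx3y had 3099 counts in ctl library 1, 2577 in dKO library 1 and 0 to 15 in the others, so both groups held 1 library with Y-linked RNA.

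The DNA before the start of the gene is shown for 4 members, since promoters are where SREBPs are known to bind, and whether they did so here was not measured. Hmgcs1 and Lss were the members whose difference in OPCs passed an unadjusted p of 0.05 under every alternative, Msmo1 is a later enzyme of the ring steps, and Srebf2 encodes the SREBP most tied to cholesterol. The sequences are RefSeq windows of the 250 bases before the start in GRCm38.p6, read in the direction of the gene. Capitals mark TCACNCCAC, a form of the sterol regulatory element, CCAAT, and the GC box GGGCGG, each on either strand, and no matches overlap in these 4 windows. Hmgcs1 lies at chr13:119690101-119690350 (plus strand), Lss at chr10:76531355-76531604 (plus), Msmo1 at chr8:64733579-64733828 (minus) and Srebf2 at chr15:82147019-82147268 (plus).
Hmgcs1: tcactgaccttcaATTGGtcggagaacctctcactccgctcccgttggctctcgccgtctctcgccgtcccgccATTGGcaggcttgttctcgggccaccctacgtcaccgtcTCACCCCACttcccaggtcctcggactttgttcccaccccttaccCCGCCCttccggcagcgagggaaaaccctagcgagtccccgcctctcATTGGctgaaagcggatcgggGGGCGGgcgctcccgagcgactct
Lss: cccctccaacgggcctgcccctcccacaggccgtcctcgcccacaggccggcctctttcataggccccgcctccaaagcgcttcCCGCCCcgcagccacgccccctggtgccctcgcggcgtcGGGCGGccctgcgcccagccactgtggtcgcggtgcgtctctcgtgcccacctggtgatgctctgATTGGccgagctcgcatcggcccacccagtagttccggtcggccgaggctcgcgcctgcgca
Msmo1: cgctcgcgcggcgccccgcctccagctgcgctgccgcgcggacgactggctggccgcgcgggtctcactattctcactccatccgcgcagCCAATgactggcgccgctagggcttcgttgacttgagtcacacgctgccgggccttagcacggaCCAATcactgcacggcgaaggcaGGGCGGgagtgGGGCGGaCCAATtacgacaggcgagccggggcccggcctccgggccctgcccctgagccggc
Srebf2: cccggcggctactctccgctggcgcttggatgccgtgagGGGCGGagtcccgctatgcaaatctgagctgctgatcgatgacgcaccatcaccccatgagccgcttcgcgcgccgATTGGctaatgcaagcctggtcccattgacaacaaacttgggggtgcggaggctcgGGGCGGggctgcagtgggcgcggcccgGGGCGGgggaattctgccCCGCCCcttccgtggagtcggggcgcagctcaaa

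Windows were at hand for 24 of the 29 members, all but Fdps, Fdft1, Sqle, Stard4 and Npc1. The sterol element letters were found in 1 of these 24, Hmgcs1, where the match began 137 bases before the start, and in 1.22% of 27025 genes with a window. CCAAT was found in 22 of 24 members, all but Acat2 and Scap, and in 37.5% of all genes. The GC box was found in 21 of 24 members, all but Pmvk, Ggps1 and Soat1, and in 35.4% of all genes. Counted by window, since some genes have several, CCAAT stood in 71.9% of 32 member windows and 33.8% of 32851 windows, and the GC box in 75.0% and 32.7%. The shares over all genes take in every gene with a window, expressed here or not, and no share over expressed genes was taken. These are matches of letters, and binding of a factor was not measured.

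The level of each member was taken per length, as TPM, in the 3 ctl libraries of each cell type. The tables of the cell types were made with different counting and normalised separately, so levels of OPCs and neurons are set side by side without a test. In OPCs the order began with Insig1, which holds Scap in the endoplasmic reticulum, at 317 ± 21.8 TPM (SD, n = 3), and Hmgcs1, the synthase of HMG-CoA, at 290 ± 3.66 TPM. Srebf1, the SREBP most tied to fatty acid genes, followed at 185 ± 12.7 TPM. Next came Npc1 and Npc2, which take cholesterol out of lysosomes, at 145 ± 26.7 and 143 ± 12.5 TPM, and Srebf2 at 141 ± 10.2 TPM. At the foot of the order stood Tm7sf2, a sterol C14 reductase, at 12.04 ± 0.614 TPM and Fdps, the farnesyl diphosphate synthase, at 4.35 ± 1.64 TPM. Of the 28 neighbouring pairs in this order, 8 had ctl libraries that did not overlap, among them Insig1 above Hmgcs1 and Hmgcs1 above Srebf1, and the other pairs did not differ beyond their spread.

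In neurons the order began with Msmo1, a sterol C4 demethylase, at 125 ± 21.98 TPM, Fdps at 122 ± 17.3 TPM and Hmgcs1 at 102 ± 6.74 TPM. It ended with Tm7sf2 at 7.36 ± 2.54 TPM, Dhcr7, which reduces 7-dehydrocholesterol, at 7.36 ± 2.31 TPM, Soat1, which esterifies cholesterol for storage, at 4.76 ± 0.376 TPM, and Cyp46a1 at 3.30 ± 1.39 TPM. Only 2 of 28 neighbouring pairs were apart in all ctl libraries, Insig2 above Ebp and Nsdhl above Stard4. Cyp46a1, a gene known for its expression in neurons, was at 16.9 ± 3.07 TPM in OPC libraries, and 23 of 29 members had the higher mean there.

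Wide gaps between the isolations were seen for 2 control genes and Npc1. Srebf1 was at 15.7 ± 4.12 TPM in neurons, 11.8-fold below the OPC value, Insig1 at 35.7 ± 7.41 TPM, 8.88-fold below, and Npc1 at 8.48 ± 4.14 TPM, 17.1-fold below. Fdps went the other way, 27.99-fold higher in neurons. Its OPC values rest on 31 to 146 counts per library, and the OPC level of Fdps is uncertain, since reads that also match near-identical copies could be left out in counting, which was not tested. The plot of ctl levels shows the spread of each gene over libraries.

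**Figure D1:**
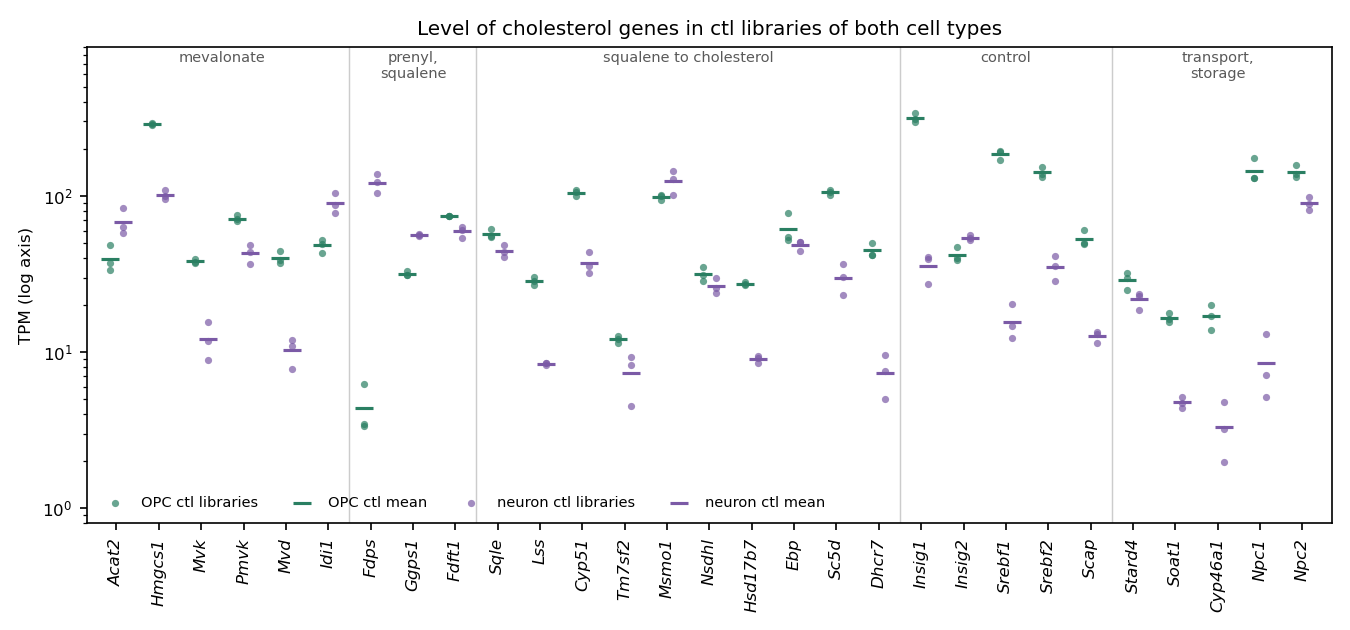
TPM (log axis) of the 29 genes in pathway order, with small points for the 3 ctl libraries of OPCs (green) and neurons (purple) and dashes for their means. Insig1 reached 317 TPM in OPCs, and Fdps was the member with the widest gap in favour of neurons, at 122 against 4.35 TPM.

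In dKO OPCs most enzymes of the route were lower than in ctl. The fitted log2 fold change was below 0 for 26 of 29 members and 18 of 19 enzymes, with a median of -0.22 over the members and -0.28 over the enzymes, against 0.01 over all genes tested, of which 49.2% were lower. An unadjusted p under 0.05 in edgeR's quasi-likelihood test was reached by 8 members, all lower in dKO, which is 27.6% of the list where 5.27% of all genes were called lower and 6.27% higher. All 3 dKO libraries lay below all 3 ctl libraries for 13 members, or 44.8%, against 9.55% of all genes, and for no member did they lie above, against 7.41%. By TPM 17 members were apart, all lower, where 13.9% of all genes tested were apart lower and 4.14% higher. After Benjamini-Hochberg adjustment over all genes no member passed 0.05, with the lowest adjusted p at 0.313, and 0.00576% of all genes passed. DESeq2 gave 7 members with an unadjusted p under 0.05 and 1 with an adjusted p under 0.05, Hmgcs1 at 0.0499, where it called 11.9% of all genes at an unadjusted and 1.69% at an adjusted p under 0.05. Over the edgeR alternatives the adjusted p of Hmgcs1 ran from 0.210 to 0.779. The plot of single OPC libraries shows these values for every member.

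**Figure D2:**
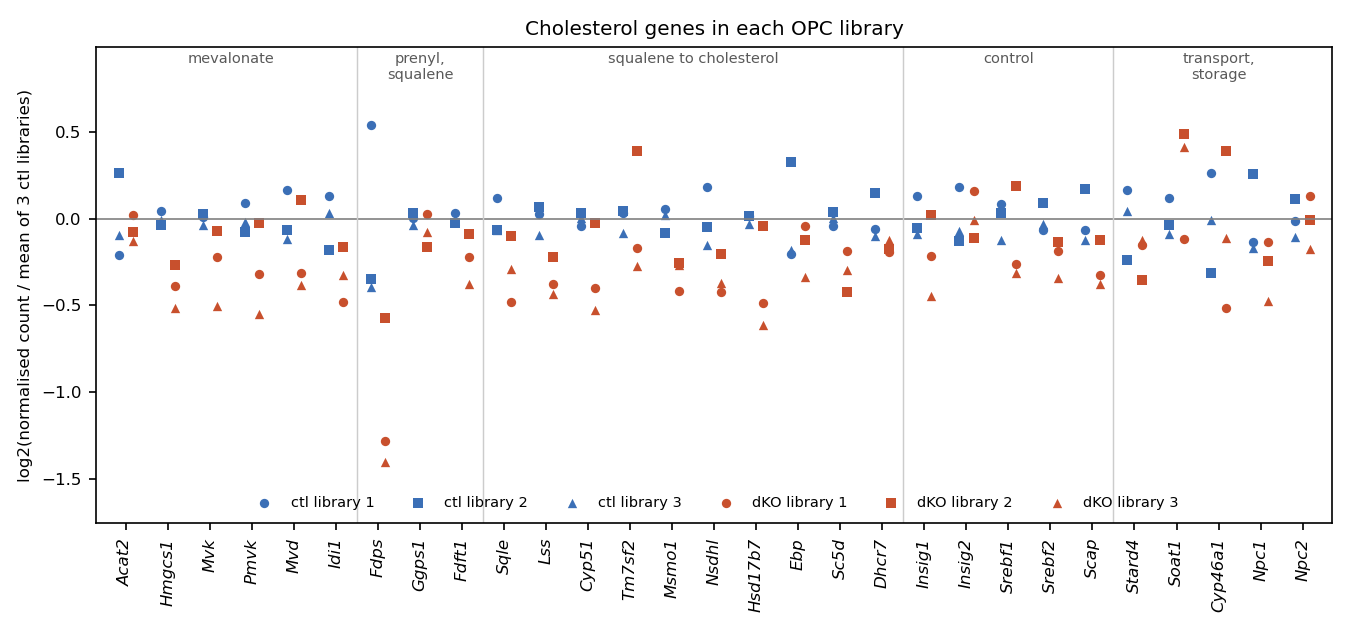
Log2 of each OPC library's normalised count over the mean of the 3 ctl libraries, for the 29 genes in pathway order, with ctl in blue and dKO in red and a marker shape per library number. The dKO points of most enzymes lie below the ctl points, and dKO library 2 (squares) is the highest dKO library for 20 of 29 genes.

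Among the 6 mevalonate genes, all were lower in dKO and 2 had an unadjusted p under 0.05. Hmgcs1 had normalised counts of 6572, 6212 and 6337 in ctl and 4870, 5301 and 4457 in dKO. The groups did not overlap, and the fitted difference was 23.5% (log2 fold change -0.39 ± 0.12 SE, unadjusted p = 0.0110). Idi1, the isopentenyl diphosphate isomerase, had 887, 716 and 827 in ctl and 582, 723 and 647 in dKO. Here dKO library 2 lay above ctl library 2, and the log2 fold change was -0.32 ± 0.13 (unadjusted p = 0.0385). Mvk, the mevalonate kinase, had 492, 497 and 475 in ctl and 419, 465 and 344 in dKO. Its groups did not overlap, with a log2 fold change of -0.25 ± 0.14 and an unadjusted p of 0.102. Pmvk, Mvd and Acat2 had overlapping groups and log2 fold changes of -0.28, -0.18 and -0.06.

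Of the 3 enzymes that join isoprene units, Fdps had the largest fitted difference of the list. It had normalised counts of 128, 69.1 and 66.9 in ctl and 36.2, 59.0 and 33.2 in dKO. The groups did not overlap, the log2 fold change was -1.04 ± 0.36 (unadjusted p = 0.0198), and the uncertainty of its level in OPCs named above applies to this difference too. Without ctl library 1 the log2 fold change was -0.66 (unadjusted p = 0.108), without dKO library 1 it was -0.93 (unadjusted p = 0.0614), and without dKO library 3 it was -0.90 (unadjusted p = 0.0565). Fdft1, the squalene synthase, had 1500, 1441 and 1463 in ctl and 1261, 1379 and 1130 in dKO. All dKO values were below all ctl values, at a log2 fold change of -0.22 ± 0.11 with an unadjusted p of 0.0664. Ggps1, which makes the geranylgeranyl diphosphate of protein prenylation, overlapped between groups at -0.07 ± 0.10.

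The squalene-to-cholesterol steps held 5 of the 8 genes with an unadjusted p under 0.05 and 7 of the 13 whose groups did not overlap. Lss, the lanosterol synthase, had normalised counts of 1497, 1541 and 1377 in ctl and 1134, 1263 and 1088 in dKO. Every dKO library was lower than every ctl library, by a fitted 21.05% (log2 fold change -0.34 ± 0.10, unadjusted p = 0.0108). Msmo1 had 3011, 2740 and 2940 in ctl and 2167, 2422 and 2407 in dKO, again without overlap (log2 fold change -0.31 ± 0.11, unadjusted p = 0.0169). Sc5d, the lathosterol desaturase, had 2393, 2522 and 2466 in ctl and 2165, 1833 and 2007 in dKO (log2 fold change -0.30 ± 0.11, unadjusted p = 0.0217). In this gene dKO library 2 was the lowest of the dKO libraries, unlike in most others.

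Nsdhl, an X-linked sterol C4 decarboxylase, had 490, 417 and 388 in ctl and 322, 374 and 334 in dKO, with a log2 fold change of -0.33 ± 0.14 and an unadjusted p of 0.0422. Hsd17b7, the ketosteroid reductase that acts beside it, had 674, 675 and 655 in ctl. In dKO it had 477, 648 and 436, so that dKO library 2 came close to the lowest ctl library (log2 fold change -0.36 ± 0.16, unadjusted p = 0.0487). Sqle, the squalene epoxidase, had 1649, 1452 and 1451 in ctl and 1088, 1417 and 1241 in dKO. Its groups did not overlap, and its unadjusted p was 0.0521 at a log2 fold change of -0.28 ± 0.12. Dhcr7 had 1193, 1380 and 1164 in ctl and 1090, 1105 and 1143 in dKO, also without overlap, at -0.16 ± 0.10 and an unadjusted p of 0.154. Cyp51, Ebp and Tm7sf2 overlapped between groups, at -0.30, -0.16 and 0.02.

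None of the 5 control genes had an unadjusted p under 0.05, with log2 fold changes from -0.27 to 0.02. Srebf2 had normalised counts of 4649, 5177 and 4758 in ctl and 4268, 4426 and 3833 in dKO. The dKO libraries lay below the ctl libraries, with a log2 fold change of -0.22 ± 0.12 and an unadjusted p of 0.0943. Scap had 1810, 2139 and 1745 in ctl and 1513, 1743 and 1460 in dKO. Its groups were apart by a narrow margin, between 1745 in ctl library 3 and 1743 in dKO library 2 (log2 fold change -0.27 ± 0.12, unadjusted p = 0.0568). Srebf1 had 5301, 5102 and 4583 in ctl and 4158, 5697 and 4015 in dKO, so that dKO library 2 was the highest of the 6 (log2 fold change -0.11 ± 0.16). Insig1 had 5137, 4523 and 4412 in ctl and 4043, 4756 and 3444 in dKO, with overlap (log2 fold change -0.20 ± 0.15). Insig2, the second Insig gene, had 793, 640 and 664 in ctl and 780, 646 and 694 in dKO, at 0.02 ± 0.13.

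None of the 5 genes of sterol transport, storage and removal had an unadjusted p under 0.05 in OPCs. Their log2 fold changes ran from -0.28 for Npc1 to 0.28 for Soat1, with overlapping groups in all 5. The other 3, Stard4, Cyp46a1 and Npc2, were at -0.21, -0.03 and -0.01.

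The dKO libraries of OPCs differed in normalised counts of the enzymes. Over the 19 enzymes, the median log2 ratio to the ctl mean was -0.32 in dKO library 1, -0.13 in library 2 and -0.37 in library 3. Library 2 was the highest dKO library for 14 of 19 enzymes, and 12 of its 19 enzyme values were below every ctl library, against 16 in library 1 and 18 in library 3. By TPM, library 2 was the highest for 10 of 19 enzymes, and 17, 16 and 16 enzyme values of dKO libraries 1, 2 and 3 were below every ctl library. Without library 2, 13 members had an unadjusted p under 0.05, all lower, where 5.21% of all genes were called lower, and 20 had groups that did not overlap, as did 30.5% of all genes. Without ctl library 1 the first of these counts was 3, without ctl library 3 it was 5, and without dKO library 1 or dKO library 3 it was 4, where 4.61%, 4.32%, 4.98% and 5.1% of all genes were called lower. Without dKO library 1 the 4 included Soat1, which was then called higher in dKO. Hmgcs1 and Lss kept an unadjusted p under 0.05 in each fit with a library left out, and the other 6 members called each lost it in at least 1 of them.

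Marker levels of other cells moved with genotype in OPCs. Of 12 microglia markers, 12 were higher in dKO with an unadjusted p under 0.05, and their summed level was 530 to 653 TPM in ctl against 659 to 2141 TPM in dKO. Of 12 astrocyte markers, 10 were called higher, with sums of 716 to 1192 TPM in ctl and 1039 to 2818 TPM in dKO. Oligodendrocyte markers summed to 41965, 54282 and 46864 TPM in ctl and 47016, 38183 and 32591 TPM in dKO, with 4 of 12 called lower. No marker of these lists was at 0 in all OPC libraries. OPC markers summed to 271 to 542 TPM in ctl and 353 to 775 TPM in dKO, endothelial markers to 2073 to 2942 and 1614 to 5017 TPM, neuron markers to 67.7 to 82.2 and 79.0 to 106 TPM, pericyte and vascular markers to 953 to 1337 and 739 to 1679 TPM, and ependymal and choroid markers to 36016 to 78005 and 50574 to 56397 TPM. The part of these shifts in the cholesterol genes was not tested, and fewer cells of a type and less RNA per cell cannot be told apart in bulk samples. The 19 enzymes together held 1209, 1234 and 1186 TPM in ctl and 887, 970 and 961 TPM in dKO.

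**Figure D3:**
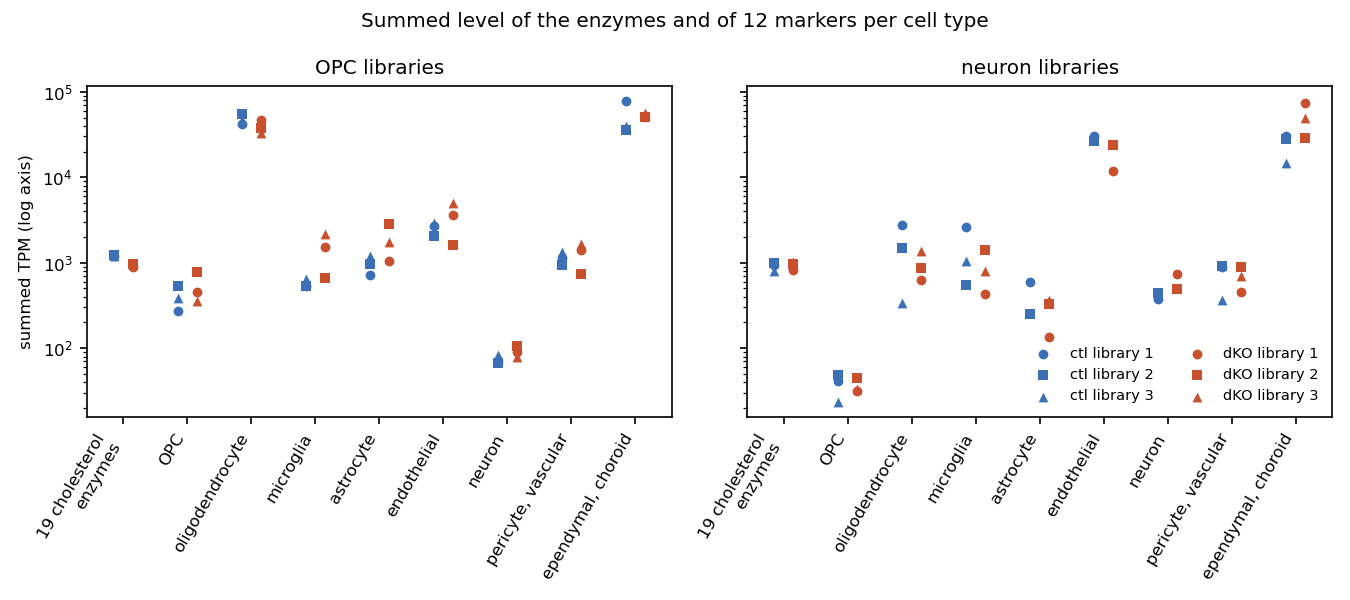
Summed TPM (log axis) of the 19 cholesterol enzymes and of 12 markers for each of 8 cell types in every OPC library (left) and neuron library (right), ctl in blue and dKO in red. In OPC libraries oligodendrocyte and choroid markers are the highest sums and the enzymes are lower in dKO, and in neuron libraries endothelial and choroid markers are the highest.

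In dKO neurons the members were split in direction, with 3 higher and 1 lower past the unadjusted threshold. A total of 15 of 29 members had a fitted log2 fold change above 0 and 14 below 0, with a median of 0.04 against 0.01 over all genes. An unadjusted p under 0.05 was reached by 3 members that were higher, Dhcr7, Fdft1 and Sqle, where 4.96% of all genes were called higher, and by 1 that was lower, Stard4, where 4.04% were. Groups did not overlap for 6 members in the higher direction and 1 in the lower, against 7.50% and 7.82% of all genes. By TPM only 3 members were apart, Fdft1 and Sqle higher and Stard4 lower, so that Hmgcs1, Mvd, Lss and Dhcr7 overlapped on that scale, where 6.08% of all genes were apart higher and 4.81% lower. No member passed an adjusted p of 0.05 with edgeR or DESeq2, DESeq2 gave 3 members an unadjusted p under 0.05 where it called 10.7% of all genes, and 0.00% of all genes passed the adjusted threshold in edgeR, where the lowest adjusted p of a member was 0.521. Without dKO library 1 the median of the members was -0.05, and without ctl library 3 it was -0.01. The 4 members with an unadjusted p under 0.05 were 2 without ctl library 1 and 1, Stard4, without ctl library 2 or dKO library 3, where 5.45%, 8.35% and 7.43% of all genes were called.

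Stard4, a soluble protein that carries sterol between membranes, was the member with the smallest p in neurons. It had normalised counts of 1092, 1088 and 976 in ctl and 561, 747 and 730 in dKO. The groups were apart by more than the spread within either, with a fitted difference of 35.4% (log2 fold change -0.63 ± 0.15, unadjusted p = 0.00308). This p stayed under 0.05 in all 14 alternatives. In OPCs the same gene had 867, 656 and 799 in ctl and 698, 606 and 710 in dKO, which overlap.

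The 6 members whose neuron dKO libraries all lay above ctl included Fdft1, Sqle and Lss, and Lss overlapped by TPM. Fdft1 had 1525, 1647 and 1552 in ctl and 2423, 1746 and 1913 in dKO (log2 fold change 0.36 ± 0.15, unadjusted p = 0.0444). Sqle, whose product is the substrate of Lss, had 1006, 1146 and 1055 in ctl and 1548, 1184 and 1327 in dKO (log2 fold change 0.34 ± 0.15, unadjusted p = 0.0470). Lss had 356, 352 and 420 in ctl and 445, 453 and 572 in dKO, at 0.38 ± 0.17 and an unadjusted p of 0.0553. Fdft1 and Sqle were highest in dKO library 1, and Lss in dKO library 3.

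Dhcr7 had the largest fitted neuron difference, on low counts. Its values were 150, 100 and 214 in ctl and 219, 311 and 370 in dKO, with a log2 fold change of 0.95 ± 0.32 and an unadjusted p of 0.0166. The gene was the sum of 11 RefSeq transcripts, of which the leading one held 37.2% of the counts, and curated mRNA records held 28.1%. With curated records alone, the log2 fold change was 1.69 for Dhcr7 (unadjusted p = 0.0775) and 0.33 for Fdft1 (unadjusted p = 0.0744), and 3 members rather than 7 had groups that did not overlap. Mvd, the mevalonate diphosphate decarboxylase, had 167, 156 and 123 in ctl and 185, 174 and 175 in dKO, at 0.26 ± 0.23. Hmgcs1 had 2982, 3354 and 3248 in ctl and 3530, 3504 and 3433 in dKO, at 0.13 ± 0.13.

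**Figure D4:**
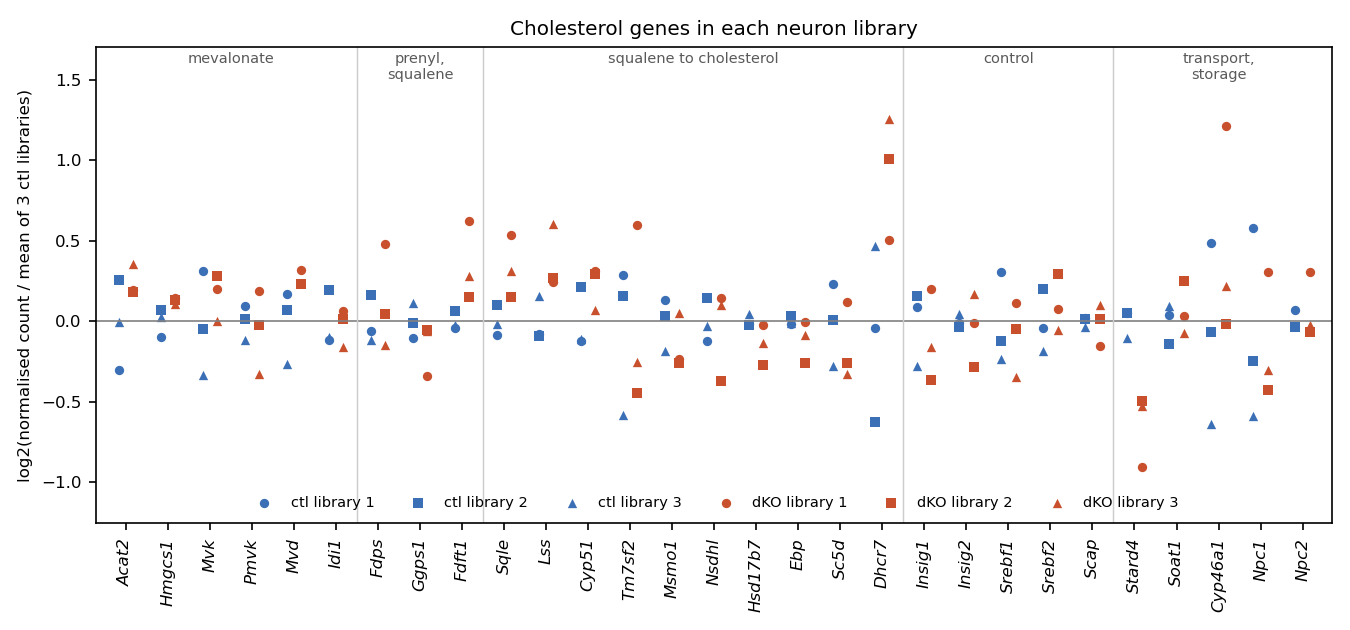
Log2 of each neuron library's normalised count over the mean of the 3 ctl libraries, for the 29 genes in pathway order, with ctl in blue and dKO in red and a marker shape per library number. The dKO points lie on both sides of 0, and dKO library 1 (circles) is the highest dKO library for 18 of 29 genes.

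Of the enzymes called or apart in OPCs, all lower, Hmgcs1, Fdft1, Sqle, Lss and Dhcr7 were apart and higher in neurons by normalised counts, as given above. The other enzymes called or apart in OPCs ran from -0.14 to 0.17 in neurons. Msmo1 had 2085, 1944 and 1670 in neuron ctl and 1612, 1585 and 1968 in dKO (-0.14 ± 0.15). Sc5d had 795, 679 and 557 against 734, 564 and 539.5 (-0.14 ± 0.19). Hsd17b7 had 370, 368 and 386 against 368, 310 and 341 (-0.14 ± 0.16), and Nsdhl 461, 554 and 491 against 553, 387 and 538 (-0.03 ± 0.18). Idi1 had 2086, 2592 and 2112 against 2366, 2282 and 2027 (-0.02 ± 0.15), Fdps 1127, 1320 and 1089 against 1644, 1214 and 1063 (0.15 ± 0.18), and Mvk 209, 163 and 134 against 194, 205 and 169 (0.17 ± 0.25). All of these groups overlapped.

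The control genes overlapped between groups in neurons in all 5 cases. Srebf2 had 1473, 1743 and 1335 in ctl and 1600, 1855 and 1462 in dKO (0.11 ± 0.16), and Srebf1 had 750.5, 557 and 515 against 658, 587 and 477 (-0.08 ± 0.20). Scap had 489, 485 and 469 against 432, 486 and 515 (-0.01 ± 0.14). Insig1 had 868, 912 and 676 against 941, 635 and 734 (-0.09 ± 0.19), and Insig2 1191, 1170 and 1240 against 1190, 986 and 1346 (-0.03 ± 0.15). The remaining 10 members ran from -0.15 for Ggps1 to 0.57 for Cyp46a1, whose counts were 39 to 154 per library, and all 10 overlapped between groups.

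In neurons too, markers of other cells moved with genotype. The summed level of 12 endothelial markers was 26478 to 30802 TPM in ctl and 11750, 24011 and 24670 TPM in dKO, with 3 called lower, and of 11 tested ependymal and choroid markers 8 were called higher and 1 lower, with sums of 14565 to 30469 TPM in ctl and 29198 to 74659 TPM in dKO. The library with the lowest endothelial and the highest choroid sum was dKO library 1, which had the highest dKO normalised count for 13 of 19 enzymes and the highest dKO TPM for 2 of 19. Neuron markers summed to 376 to 441 TPM in ctl and 497 to 741 TPM in dKO, oligodendrocyte markers to 341 to 2785 and 626 to 1370 TPM, microglia markers to 551 to 2640 and 436 to 1418 TPM, astrocyte markers to 250 to 587 and 135 to 363 TPM, pericyte and vascular markers to 364 to 921 and 453 to 893 TPM, and OPC markers to 23.8 to 49.1 and 31.3 to 44.7 TPM. Their part in the neuron values of the cholesterol genes was not tested. The 19 enzymes together held 933, 986 and 801 TPM in ctl and 834, 980 and 1009 TPM in dKO, which overlap.

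Set side by side, 13 members were lower in dKO OPCs and higher in dKO neurons, 13 were lower in both, 2 were higher in both and 1 was higher in OPCs and lower in neurons. Over the 13398 genes tested in both, these shares were 24.7%, 21.3%, 26.6% and 27.5% in the same order. By normalised counts, the groups were apart in opposite directions in the 2 cell types for 5 enzymes, Hmgcs1, Fdft1, Sqle, Lss and Dhcr7, lower in OPCs and higher in neurons, which is 17.2% of the members and 0.493% of all these genes, of which 1.29% were apart in opposite directions either way round. By TPM this held for 2 of the 5, Fdft1 and Sqle, and with curated neuron transcripts for 1, Sqle. The difference between the cell types was not tested, since the tables were counted in different ways. The plot of fitted differences shows both cell types for every member.

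**Figure D5:**
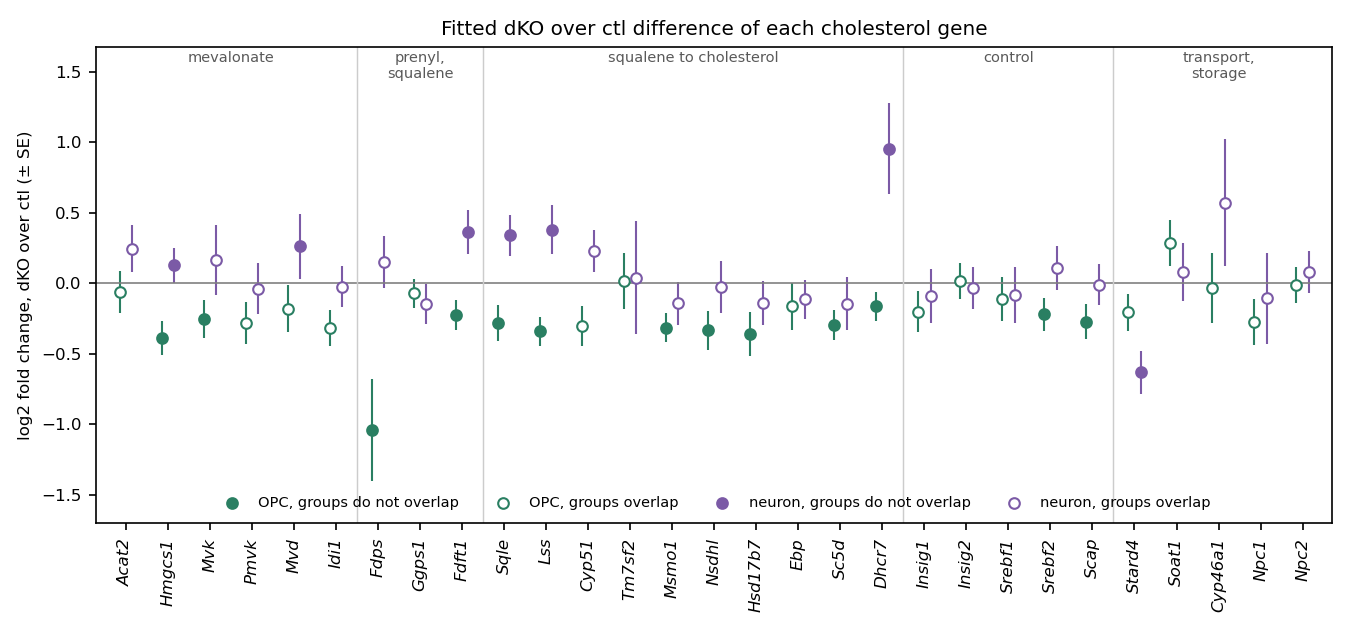
Fitted log2 fold change of dKO over ctl with its standard error for the 29 genes in pathway order, OPCs in green and neurons in purple, filled where the 3 dKO and 3 ctl libraries do not overlap. OPC values are below 0 for 26 of 29 genes, and neuron values lie on both sides of 0 with Dhcr7 highest at 0.95 and Stard4 lowest at -0.63.

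Other genes of the pathway, from hand-written lists, were counted in the same fit. In OPCs they held 22 calls among 111 genes tested, against 11.5% of all genes. Of 11 tested partners of the sterol ring steps, 1 was lower in OPCs with an unadjusted p under 0.05 and 2 were higher. Of 18 fatty acid genes that SREBPs are known to act on, 2 were lower and 1 higher. Elovl6, a fatty acid elongase, had 2712, 3320 and 2725 in ctl and 2381, 2178 and 1849 in dKO (log2 fold change -0.45 ± 0.14), and Acaca, the acetyl-CoA carboxylase, had 2321, 2933 and 2512 against 2131, 2022 and 2120 (-0.31 ± 0.12). Of 19 partners in SREBP control none passed, and of 4 tested partners from mevalonate to squalene none did.

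Genes of sterol export and oxysterols were called in both directions in OPCs, 5 higher and 5 lower of 20 tested. The higher ones included Lcat, which esterifies cholesterol on lipoproteins, with 198, 207 and 220 in ctl and 271, 461 and 364 in dKO (log2 fold change 0.81 ± 0.20, unadjusted p = 0.00335), and Mylip, a ligase that degrades lipoprotein receptors, at 0.90 ± 0.27. Ch25h, the cholesterol 25-hydroxylase, Cyp7b1, an oxysterol hydroxylase, and Nr1h3, an oxysterol receptor, were at 0.72, 0.70 and 0.65, all without overlap. The lower ones included Cyp27a1, the sterol 27-hydroxylase, at -0.44 ± 0.15, and the transporters Abca2 and Abca7 at -0.43 and -0.28. The shifts of microglia, astrocyte and oligodendrocyte markers given above are from the same libraries, and their part in these export and oxysterol genes was not tested. Of 22 uptake and egress genes, 3 were lower and 0 higher, and of 17 isoprenoid genes 1 was lower, the farnesyltransferase subunit Fntb at -0.40 ± 0.11, and 2 were higher, Zmpste24 and Rabggtb at 0.30 and 0.36.

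In neurons these lists held 8 calls among 112 genes tested, or 7.14%, against 9.0% of all genes. Uptake and egress genes had 1 higher and 3 lower of 22, and export and oxysterol genes 0 higher and 2 lower of 21. Fatty acid genes had 1 lower of 18, Acsl3, an acyl-CoA synthetase, at -0.46 ± 0.15, and SREBP control partners 1 higher of 19, Usp20, a deubiquitinase, at 0.42 ± 0.16. No call was found among 11 sterol ring partners, 17 isoprenoid genes and 4 partners from mevalonate to squalene. Osbp, an oxysterol-binding protein, had 397, 480 and 405 in ctl and 523, 743 and 723 in dKO (log2 fold change 0.63 ± 0.18, unadjusted p = 0.00760).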

How the data were processed

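RNA was measured by bulk RNA-seq in 12 libraries, and groups were taken from the sample titles. The OPC table of the authors held raw counts by Ensembl gene, FPKM values and counts divided by size factors (signal), made per the study's methods with HISAT2 v2.0.5 on GRCm38, featureCounts v1.5.0-p3 and DESeq2 v1.20.0, while the labels name mm39, so no gene coordinate of that table is printed. For neurons the authors deposited estimated counts, TPM and FPKM per RefSeq transcript. The study's methods name the same steps for all its RNA-seq, with none that estimates counts per transcript. The tool behind the neuron values was not given in the sources used here. The authors' fold changes and p-values in these files were not used.

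Neuron transcripts were summed per gene and rounded. The OPC TPM were FPKM values the authors deposited, rescaled to a common sum per library. Genes with a mean TMM-normalised count of at least 10 were tested with edgeR 4.0.16 (R 4.3.3, quasi-likelihood, genotype as the only term), with Benjamini-Hochberg adjustment over all genes at 0.05. Normalised counts are counts over TMM-scaled library sizes, and standard errors are the log2 fold change over the square root of F. The code was tested on simulated data, where it called 192 of 196 changed genes in the OPC setting and 195 of 196 in the neuron setting, with 4 and 10 unchanged genes called. The simulated log2 changes were several times larger than most differences of the members, and all genes shared the same dispersion. These rates therefore do not apply to differences of the size seen here. An exact permutation of 3 against 3 libraries cannot go below p = 0.10.

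The members and the other gene lists were chosen with earlier results of these data known. Values per library are given for members with an unadjusted p under 0.05 or groups that do not overlap in either cell type and for Srebf1, Srebf2, Scap, Insig1 and Insig2, and other members are given by range. From the other lists, genes with an unadjusted p under 0.05 and groups that do not overlap could be named, and some of these are counted only. Alternatives were DESeq2 1.42.0, its size factors, no filter, a minimum of 50, robust dispersions, a replicate block, curated transcripts, each library left out and, added after seeing the data, TMM factors from all genes and TPM as the scale.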

Additional observations from a re-analysis of the deposited data

Results flagged for a closer look

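For 5 enzymes the dKO normalised counts were all lower than those of ctl in OPCs and all higher in neurons. This holds for 17.2% of the members and 0.493% of the 13398 genes tested in both cell types, of which 1.29% were apart in opposite directions either way round. By TPM it held for 2 of the 5, Fdft1 and Sqle, and with curated neuron transcripts for 1, Sqle. The neuron log2 fold change minus the OPC one was 0.51 for Hmgcs1, 0.59 for Fdft1, 0.62 for Sqle, 0.72 for Lss and 1.12 for Dhcr7. This difference between the cell types was not tested, and it sets side by side tables that were counted in different ways. No explanation was weighed.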

How the results depend on the processing

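In OPCs, the count of members with an unadjusted p under 0.05 was 8, and it was 5 without a filter on low counts, 5 with a replicate block and 3 to 13 with a library left out, where 11.5% of all genes were called, and 9.15%, 11.7% and 6.34% to 13.3% under these alternatives. Members whose groups do not overlap in OPCs, 13, were 14 to 20 with a library left out, where the share of all genes was 23.2% to 30.5% in place of 9.55% lower plus 7.41% higher. DESeq2 gave 1 OPC member an adjusted p under 0.05. In neurons, the count of members with an unadjusted p under 0.05 was 4, and it was 2 with curated transcripts and 1 to 4 with a library left out, where 9.0% of all genes were called, and 7.35% and 5.45% to 11.03% under these alternatives. Members whose groups do not overlap in neurons, 7, were 3 with curated transcripts, 3 by TPM, an alternative added after seeing the data, and 7 to 11 with a library left out, where the share of all genes was 22.8% to 29.5% in place of 15.3%. The replicate block gave 3 neuron members, Dhcr7, Lss and Stard4, without Fdft1 and Sqle. Same-numbered libraries deviated with correlations of -0.11, 0.15 and 0.11 in OPCs and 0.17, -0.08 and -0.08 in neurons, and not every library correlated best with its own number, so the numbers were not taken as pairs, although neuron library 1 of both groups was the library with Y-linked RNA. Without ctl library 1 the neuron count was 2, and without ctl library 2 or dKO library 3 it was 1, Stard4. The causes were not tested.

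Over all OPC genes, 1 passed an adjusted p of 0.05, against 293 with DESeq2, 87 without the filter, 27 with the block and 199 without dKO library 2, and in neurons 0 passed against 88 with DESeq2. No member called or apart in a cell type changed direction under the 13 OPC or 14 neuron alternatives. Of the others, 6 of 15 in OPCs and 13 of 22 in neurons did in at least 1. Groups that do not overlap stay apart when a library is left out, so those fits could not test the direction of such members. The contrast with the others therefore follows in part from how the members were selected.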
